A study of Arabidopsis thaliana with 6 samples.

Results

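The genes described here are 53 cyclins, cyclin-dependent kinases (CDKs), CDK inhibitors and their nearest regulators, of 23022 genes listed in at least 1 library. They were chosen by gene identifier from families that act in the plant cell cycle, with earlier results of these data known. Each was assigned to a phase by its known role: 24 to G1/S, 4 to S, 21 to G2/M and 4 to all phases. Whole seedlings of Arabidopsis thaliana were the source of polyadenylated RNA and were grown for 10 days on upright plates of salt medium, and the sequencing covered 3 libraries of wild type (WT) and 3 of a mutant named 17ab. No stress treatment is named for either group, seedlings of like size were taken, and the number of seedlings in a library is not stated. Setting 17ab against WT asks whether the genotypes differ in the transcripts of the cell cycle machinery.

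The labels do not spell out the genes behind the name 17ab, and it is 1 mutant line. The 3 unfolded protein response genes whose names match it were low in the libraries labelled 17ab. The transcription factor bZIP17 had 10.66, 11.25 and 10.24 FPKM (fragments scaled to gene length and library total) in WT and 2.08, 1.9 and 2.08 in 17ab. The stress sensor kinase IRE1A had 12.6, 12.3 and 12.11 FPKM in WT and 3.73, 3.99 and 4.06 in 17ab. Its paralog IRE1B had 8.24, 7.81 and 8.22 FPKM in WT and 5.27, 5.06 and 4.52 in 17ab. The leaf gene CAB1, for a light-harvesting protein, lay between 9411.76 and 12077.27 FPKM in every library. Totals ran from 5968854 to 6292461 expected counts per library, so that members at low FPKM rest on few counts.

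A CDK is active only when bound to a cyclin. In plants D-type cyclins with CDKA;1 drive entry into S phase by phosphorylating RBR1, the plant retinoblastoma protein, which releases E2F factors to switch on DNA replication genes. A- and B-type cyclins with CDKA;1 and the plant-specific CDKB kinases carry the cell through G2 into mitosis. Many G2/M genes carry MSA elements (mitosis-specific activators, core AACGG), which are bound by MYB3R factors. KIP-related proteins (KRPs) and SIAMESE-related proteins inhibit the kinases and are known for their part in endoreduplication, the rounds of DNA replication without division that accompany cell growth in leaves.

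All 53 members were listed in at least 1 library, and 50 passed the filter on low counts. Of these, 5 fell and 0 rose in 17ab at an edgeR adjusted p under 0.05, and 45 did not pass the test. Over all 17854 genes tested, 6.51% were called lower and 7.57% higher, so the share of members called lower (10%) stands a little above the background in this fit. The fallen members were the mitotic cyclins CYCB1;1 and CYCB1;2, the D-type cyclins CYCD3;2 and CYCD6;1, and CKS2, a small subunit that docks on CDKs. The median log2 fold change of the tested members was -0.18, against -0.002 over all tested genes, with 40 members below 0 and 10 above it. At an unadjusted p under 0.05, 10 members were lower (background 13.4%) and 0 were higher (background 14.1%). The groups did not overlap, with 17ab lower, for 11 of the 50 (22%), where the background was 12.9%. They did not overlap in the other direction for 3 (6%), where the background was 18.2%. The number called lower was 2 when WT replicate 2, WT replicate 3 or 17ab replicate 3 was left out, and those 2 were CYCB1;2 and CYCD3;2 each time. That is 2 of 50 tested members, where 3.76%, 3.48% and 5.1% of all tested genes were called lower, in that order. The excess over the background was thus not kept in every fit.

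**Figure D1:**
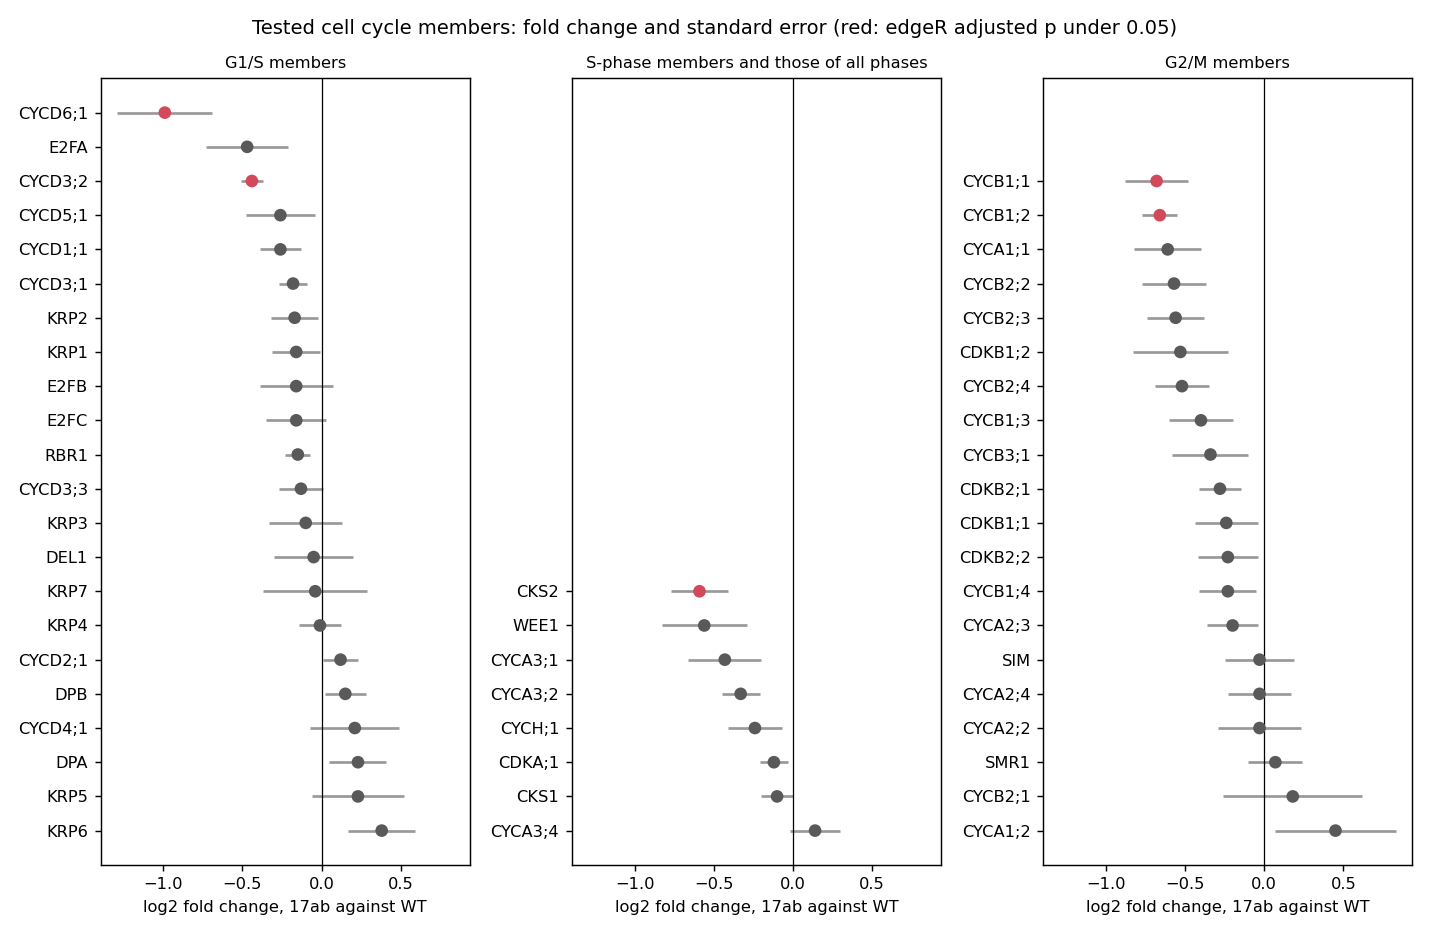
Log2 fold change of 17ab against WT for the 50 tested members, by phase, with the standard error of the edgeR fit as bars and members called lower in red. The 5 red points are 2 G1/S members, 2 G2/M members and CKS2, which acts in all phases, and 40 of the 50 points lie below 0.

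The B-type cyclins bind CDKs at the entry into mitosis, and their median log2 fold change was -0.52 over 9 tested genes, with 8 of them below 0. Of the 9, 2 fell (22.2%, background 6.51%), 0 rose (background 7.57%), and 5 had groups that did not overlap with 17ab lower (55.6%, background 12.9%). The sequences before these genes are shown first, because they hold the MSA cores through which B-type cyclins are known to be switched on at G2/M. Each sequence is the 250 bases before the RefSeq gene start in TAIR10.1, 5′ to 3′ on the gene's strand, and capitals mark each match to the MSA core, as AACGG or, on the other strand, CCGTT. In the order shown they lie at chr4:17624309-17624558 (minus strand), chr5:1861704-1861953 (minus strand), chr4:16901346-16901595 (plus strand) and chr1:7137829-7138078 (minus strand).
CYCB1;1: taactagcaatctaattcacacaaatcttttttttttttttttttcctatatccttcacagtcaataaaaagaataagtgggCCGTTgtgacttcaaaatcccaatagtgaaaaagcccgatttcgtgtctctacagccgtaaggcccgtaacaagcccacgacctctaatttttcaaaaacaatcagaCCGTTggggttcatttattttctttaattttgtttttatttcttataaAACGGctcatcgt
CYCB1;2: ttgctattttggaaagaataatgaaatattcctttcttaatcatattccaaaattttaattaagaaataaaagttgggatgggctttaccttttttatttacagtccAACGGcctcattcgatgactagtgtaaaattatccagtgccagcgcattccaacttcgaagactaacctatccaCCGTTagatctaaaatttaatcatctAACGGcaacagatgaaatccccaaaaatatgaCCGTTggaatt
CYCB2;2: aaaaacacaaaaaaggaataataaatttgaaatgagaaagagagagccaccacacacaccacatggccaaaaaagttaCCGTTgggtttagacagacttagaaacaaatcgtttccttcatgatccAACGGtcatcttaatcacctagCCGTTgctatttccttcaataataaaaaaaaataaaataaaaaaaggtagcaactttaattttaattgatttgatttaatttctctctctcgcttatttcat
CYCB2;3: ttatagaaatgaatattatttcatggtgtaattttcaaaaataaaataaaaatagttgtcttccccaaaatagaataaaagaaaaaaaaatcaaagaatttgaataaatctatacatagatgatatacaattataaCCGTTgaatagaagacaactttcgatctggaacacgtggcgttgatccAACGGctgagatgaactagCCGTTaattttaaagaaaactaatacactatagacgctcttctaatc

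The core stood in the window of 6 of the 9 B-type cyclins (66.7%), where 20.6% of the windows of 27443 protein-coding genes held it on either strand. Each of the 6 held at least 3 matches: 4 in CYCB1;2 and 3 in each of the other 5, which are the 3 further genes shown, CYCB1;3 and CYCB2;1. At least 2 matches were found in 3.62% of all windows, and also in 3 of the 7 KRP windows (42.9%), with 6 matches in KRP1. The longer form CNAACGG, which contains the core, stood in the same 6 B-type windows and in 4.5% of all windows. The windows of CYCB1;4, CYCB2;4 and CYCB3;1 held no core. Among the 21 G2/M members the core was in 10 windows (47.6%), among the 10 D-type cyclins in 1, among the 4 CDKB genes in 1 and among the 7 KRP genes in 4. A match describes these letters in this window and is not a measured binding site.

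**Figure D2:**
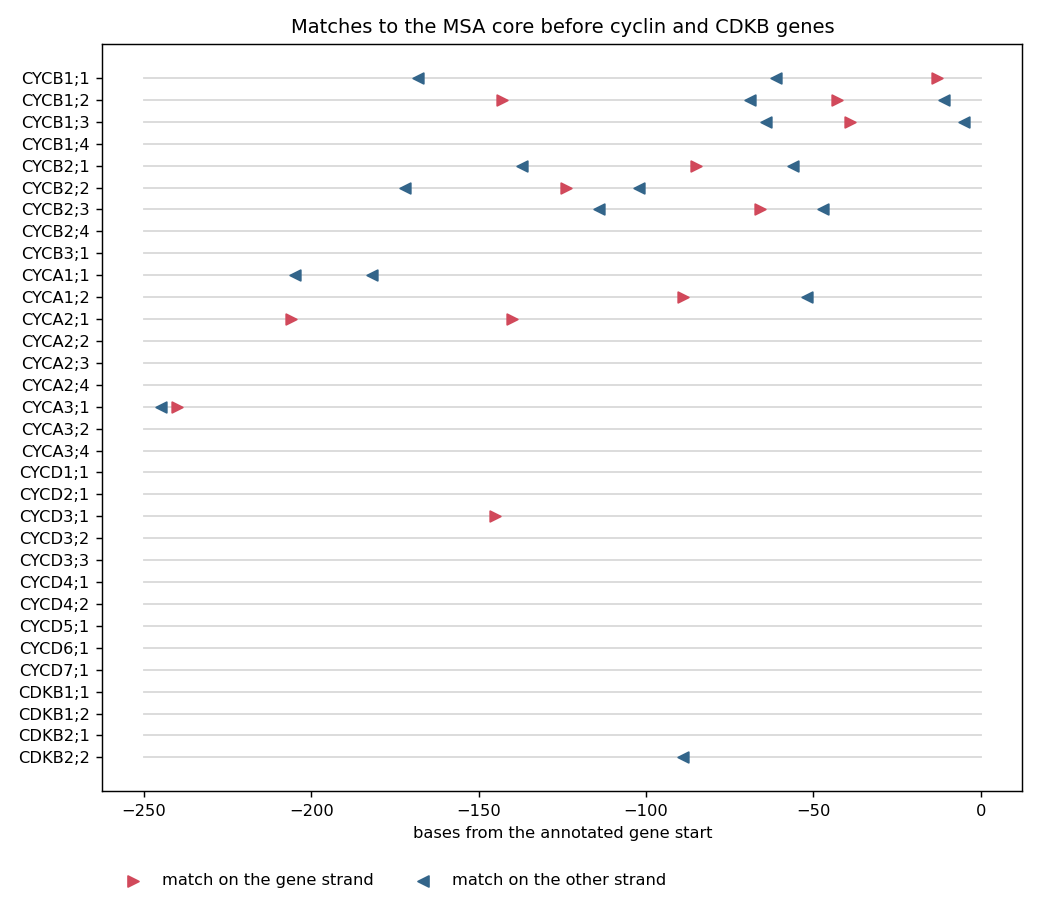
Matches to the MSA core AACGG in the 250 bases before the annotated start of each A-, B- and D-type cyclin and CDKB gene, with the distance from the start on the x axis and the strand given by the direction and colour of the triangles. Of the B-type cyclins 6 of 9 hold at least 3 matches each, and of the D-type cyclins 1 of 10 holds any.

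CYCB1;1 (AT4G37490), a widely used marker of cells in G2 and mitosis, had 5.07, 5.04 and 4.82 FPKM in WT and 3.6, 3.21 and 2.64 in 17ab. All 3 mutant libraries lay below all WT libraries, and the fitted level was 37.8% lower. The log2 change was -0.68 ± 0.20 (SE, n = 3 per group, edgeR adjusted p = 0.03649). The call was kept without 17ab replicate 1 (adjusted p = 0.04226) and lost in each of the other 5 fits without 1 library. In these the adjusted p was 0.1025, 0.09018 and 0.07635 without WT replicates 1, 2 and 3 and 0.07349 and 0.1122 without 17ab replicates 2 and 3. With all 6 libraries it was also lost with DESeq2 (adjusted p = 0.1669) and in 2 of the 3 limma-trend fits (adjusted p = 0.05072 and 0.07333).

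CYCB1;2 (AT5G06150), its close relative, was the most abundant B-type cyclin, with 19.18, 23.13 and 19.88 FPKM in WT and 11.55, 14.3 and 13.95 in 17ab. The groups were well apart, and the fitted level was 36.8% lower in 17ab. The log2 change was -0.66 ± 0.11 (SE, edgeR adjusted p = 0.002147), and the call held in all 16 alternatives. Reads of CYCB1;2 were divided with other genes in all 6 libraries, so its level is uncertain to that extent. The other B1 members, CYCB1;3 and CYCB1;4, had log2 fold changes of -0.40 ± 0.20 and -0.23 ± 0.18 with overlapping groups (edgeR adjusted p = 0.2155 and 0.4532).

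Of the B2 cyclins, 3 had groups that did not overlap without passing the test. CYCB2;2 (AT4G35620) had 5.81, 5.04 and 7.29 FPKM in WT and 3.76, 4.87 and 3.71 in 17ab, a log2 change of -0.57 ± 0.20 (edgeR adjusted p = 0.07448). CYCB2;3 (AT1G20610) had 6.5, 8.61 and 7.04 FPKM in WT and 5.03, 6.4 and 3.87 in 17ab, a log2 change of -0.56 ± 0.18 (edgeR adjusted p = 0.05818). In both, the highest mutant library came close to the lowest WT library. CYCB2;4 (AT1G76310) had 7.26, 8.64 and 10.01 FPKM in WT and 4.77, 6.26 and 5.52 in 17ab, a log2 change of -0.52 ± 0.17 (edgeR adjusted p = 0.05978). The gene length behind its FPKM varied 1.22-fold between libraries, and the FPKM means gave -0.65. Without 17ab replicate 2 both CYCB2;3 and CYCB2;4 passed, at an edgeR adjusted p of 0.02126 and 0.03153. Neither passed when any other single library was left out, with an edgeR adjusted p of up to 0.2117 and 0.1969. CYCB2;1 was the exception of the class, at a low level of 0.48 to 1.62 FPKM and a log2 change of 0.18 ± 0.44 (edgeR adjusted p = 0.839). CYCB3;1 (AT1G16330), the single B3 member, had 2.56, 3.42 and 2.97 FPKM in WT and 2.98, 2.51 and 1.73 in 17ab, with overlapping groups and a log2 change of -0.34 ± 0.24 (edgeR adjusted p = 0.4175).

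Summed over the 9 genes, B-type cyclin transcripts stood at 57.48, 66.11 and 64.76 FPKM in WT and at 42.93, 48.0 and 40.49 in 17ab, which is 30.2% lower on average. The sums of the 4 B1 and of the 4 B2 genes were 30.6% and 31.1% lower, each with no overlap between the groups. In whole seedlings, fewer dividing cells and less transcript per dividing cell cannot be told apart, here and in the results that follow.

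**Figure D3:**
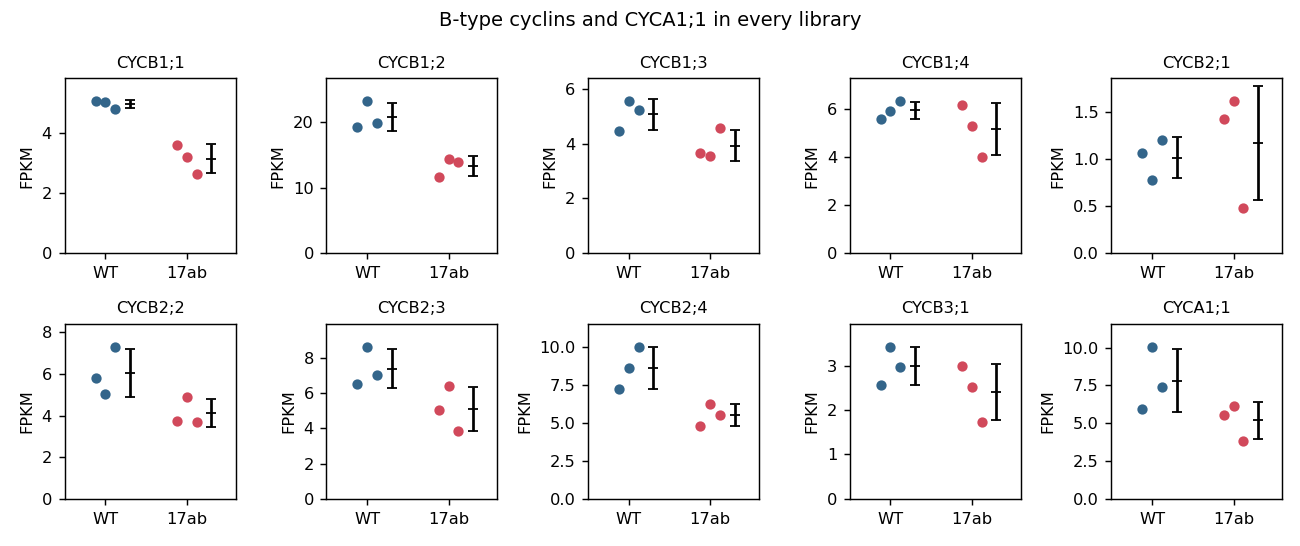
FPKM of the 9 B-type cyclins and CYCA1;1 in each library of WT (blue) and 17ab (red), with the group mean and SD as a black bar. The groups do not overlap for 5 of the B-type cyclins, all lower in 17ab, and they overlap for the other 5 genes.

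The A-type cyclins of G2/M were mixed. CYCA1;1 (AT1G44110), a mitotic A-type cyclin, had 5.95, 10.05 and 7.41 FPKM in WT and 5.56, 6.16 and 3.84 in 17ab. WT replicate 1 lay below 17ab replicate 2, so the groups overlapped, and the log2 fold change of -0.61 ± 0.21 did not pass (edgeR adjusted p = 0.0702). Without WT replicate 1 it was -0.77 and passed at an edgeR adjusted p of 0.04453. It was -0.4 without WT replicate 2 and -0.44 without 17ab replicate 3, and passed in neither (edgeR adjusted p = 0.2964 and 0.2115). CYCA1;2, known for its role in meiosis, had 0.56 to 2.21 FPKM and the highest log2 fold change of all members, 0.45 ± 0.38 (edgeR adjusted p = 0.4954). CYCA2;3 (AT1G15570), known for restraining endoreduplication, was the most abundant of the A2 class, with 9.1, 12.26 and 12.16 FPKM in WT and 7.59, 11.3 and 10.82 in 17ab. Its groups overlapped, at a log2 change of -0.20 ± 0.16 (edgeR adjusted p = 0.4772). CYCA2;2 and CYCA2;4 were each at -0.03 on the log2 scale. CYCA2;1 stayed under the filter on low counts, with 0.73, 0.73 and 0.76 FPKM in WT and 0.24, 0.48 and 0.61 in 17ab.

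The 4 CDKB genes, for kinases made from S or G2 phase to mitosis, were all below 0 and none passed the test, with a median log2 fold change of -0.26. CDKB2;1 (AT1G76540) had 14.54, 20.94 and 18.18 FPKM in WT and 15.52, 15.27 and 14.06 in 17ab, with WT replicate 1 inside the range of the mutant and a log2 change of -0.28 ± 0.13 (edgeR adjusted p = 0.1838). CDKB1;1 (AT3G54180) had 7.09, 5.86 and 5.23 FPKM in WT and 5.9, 5.31 and 4.53 in 17ab, also overlapping, at -0.24 ± 0.20 (edgeR adjusted p = 0.4889). CDKB1;2 and CDKB2;2 were at -0.53 ± 0.30 and -0.23 ± 0.19 on the log2 scale. The sum of the 4 was 38.59, 39.96 and 37.2 FPKM in WT and 31.83, 33.94 and 30.57 in 17ab, so the sum did not overlap although each gene did.

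The inhibitors assigned to G2/M, SIM and SMR1, are known for halting mitosis in cells that go on to endoreduplicate. SMR1 (AT3G10525) had 27.9, 22.33 and 27.94 FPKM in WT and 35.78, 21.8 and 25.86 in 17ab, with the highest and the lowest library both in the mutant. Its log2 fold change was 0.07 ± 0.17 and that of SIM was -0.03 ± 0.22 (edgeR adjusted p = 0.8524 and 0.951).

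Over the whole G2/M phase, 2 of 20 tested members fell (10%, background 6.51%), with a median log2 fold change of -0.26, and 17 of the 20 lay below 0. Summed FPKM of the 21 members was 155.88, 172.0 and 167.78 in WT and 140.22, 142.84 and 130.31 in 17ab, with no overlap between the groups.

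Among the G1/S members, the D-type cyclin CYCD3;2 had the lowest adjusted p of all tested members. CYCD3;2 (AT5G67260) belongs to the CYCD3 cyclins, which are known for holding leaf cells in division under cytokinin. It had 51.39, 48.78 and 50.65 FPKM in WT and 37.24, 37.43 and 38.18 in 17ab. Replicates lay close together in both groups, and the gap between the groups was far wider than either spread. The fitted level was 26.2% lower, with a log2 change of -0.44 ± 0.07 (SE, edgeR adjusted p = 0.001695), and the call held in all 16 alternatives. It was the most abundant D-type cyclin in both genotypes and made up 42.1% of their summed FPKM in WT and 37.4% in 17ab. Its upstream window, shown as a contrast to the mitotic cyclins because it holds no MSA core, lies at chr5:26835889-26836138 (plus strand, TAIR10.1, 250 bases before the RefSeq gene start). The gene overlaps AT5G67265 on the opposite strand, which was listed at 0 in 5 libraries and had 0.34 FPKM in 17ab replicate 2.
CYCD3;2: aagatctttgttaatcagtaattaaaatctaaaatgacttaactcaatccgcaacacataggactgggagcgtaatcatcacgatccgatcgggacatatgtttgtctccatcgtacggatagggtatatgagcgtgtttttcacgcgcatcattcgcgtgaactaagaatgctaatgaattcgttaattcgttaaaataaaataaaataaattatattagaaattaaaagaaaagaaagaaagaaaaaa

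The sister genes did not pass the test. CYCD3;1 went from 21.7 ± 2.15 to 19.5 ± 0.694 FPKM (mean ± SD, n = 3) at a log2 change of -0.18 ± 0.09 (edgeR adjusted p = 0.235). CYCD3;3 went from 12.6 ± 0.274 to 11.7 ± 1.96 FPKM at -0.13 ± 0.14 (edgeR adjusted p = 0.5849). Whether the fold changes of the 3 sisters differ was not tested.

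CYCD6;1 (AT4G03270), known from the formative divisions of the root ground tissue downstream of SHR and SCR, had 4.37, 3.83 and 5.52 FPKM in WT and 1.58, 3.59 and 1.25 in 17ab. 17ab replicate 2 stood apart from the other mutant libraries and came just under the lowest WT library. The log2 change of -0.99 ± 0.30 (SE, edgeR adjusted p = 0.04525) was the largest in size among the tested members. It rests on 11 to 36 counts per library, and it was called in 1 of the 6 fits without 1 library, that without 17ab replicate 2 (-1.38, adjusted p = 0.01513). In the other 5 the edgeR adjusted p was 0.1187, 0.06843 and 0.1252 without WT replicates 1, 2 and 3 and 0.1071 and 0.1409 without 17ab replicates 1 and 3. With all 6 libraries the call was lost with DESeq2 (adjusted p = 0.1139) and in all 3 limma-trend fits (adjusted p from 0.05799 to 0.0967). The gene length the authors used varied 1.46-fold between libraries, and the FPKM means gave -1.09 on the log2 scale. The gene overlaps AT4G03260 on the opposite strand, which had 47.76 to 59.78 FPKM and a log2 change of -0.11 (edgeR adjusted p = 0.4318). The sources used here do not say if counting was stranded, so reads of the pair may not have been told apart. The regulators SHR and SCR had log2 fold changes of 0.07 and -0.03 (edgeR adjusted p = 0.8006 and 0.9063).

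The remaining D-type cyclins did not pass the test, with log2 fold changes from -0.26 for CYCD1;1 and CYCD5;1 to 0.21 for CYCD4;1. CYCD2;1 was at 0.12 ± 0.11 (edgeR adjusted p = 0.554), from 12.7 ± 0.835 to 14.1 ± 1.26 FPKM. CYCD4;2 and CYCD7;1 stayed under the filter, and CYCD7;1, known from the last division of the stomatal lineage, had 0.75, 0.57 and 0.59 FPKM in WT and 0.28, 0.56 and 0 in 17ab. By level the order in WT was CYCD3;2, CYCD3;1, CYCD2;1, CYCD3;3 and CYCD1;1, of which CYCD2;1 and CYCD3;3 did not differ beyond their spread. Summed over the 10 genes, D-type cyclins were at 115.5, 118.51 and 124.63 FPKM in WT and 101.23, 101.21 and 99.11 in 17ab, which is 15.9% lower.

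**Figure D4:**
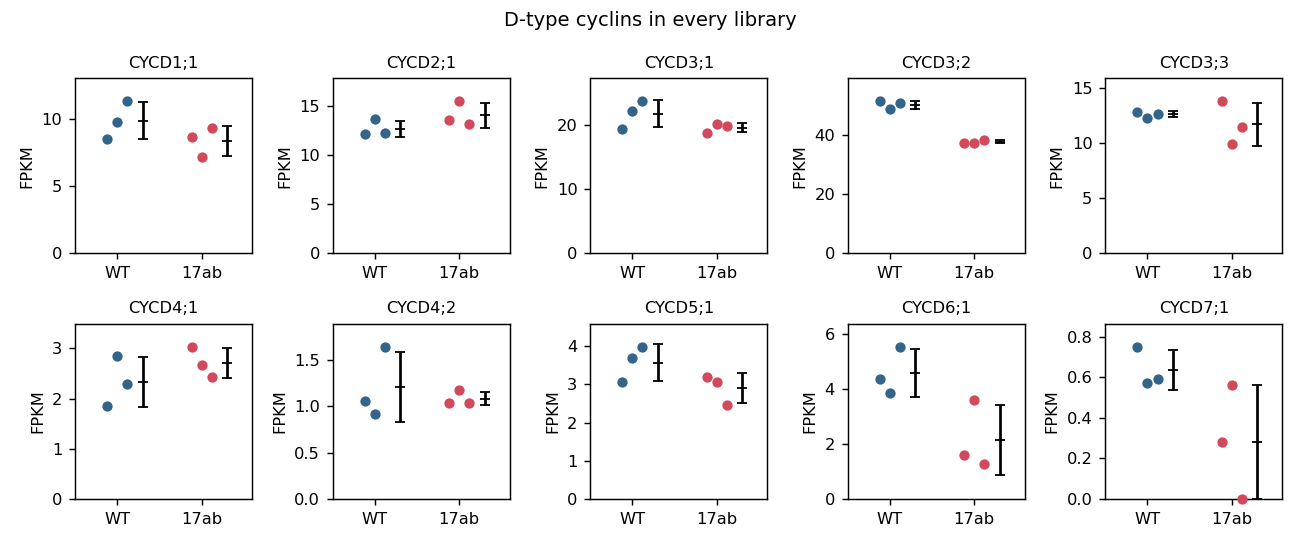
FPKM of the 10 D-type cyclins in each library of WT (blue) and 17ab (red), with the group mean and SD as a black bar. The most abundant, CYCD3;2, shows tight groups at means of 50.3 and 37.6 FPKM, and CYCD6;1 shows a wide mutant group.

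The KRP inhibitors, which bind cyclin-CDK complexes and block them, were balanced around 0. None of the 7 passed the test in either direction, the median log2 fold change was -0.04, and their summed FPKM was 52.26 to 53.36 in WT and 51.7 to 54.05 in 17ab. KRP4 (AT2G32710), the most abundant, had 14.41, 17.23 and 15.85 FPKM in WT and 14.46, 18.79 and 14.69 in 17ab, with a log2 change of -0.01 ± 0.13 (edgeR adjusted p = 0.9757). KRP2 (AT3G50630) had 10.21, 10.14 and 10.37 FPKM in WT and 9.24, 9.08 and 9.43 in 17ab, a small but complete separation at -0.17 ± 0.15 (edgeR adjusted p = 0.5056). The class also held 2 genes with all mutant libraries above WT (background 18.2%). KRP6 (AT3G19150) had 5.92, 4.62 and 4.76 FPKM in WT and 6.39, 6.98 and 7.87 in 17ab, at 0.38 ± 0.21 (edgeR adjusted p = 0.273). KRP5 (AT3G24810), known from dark-grown hypocotyl and root growth, had 2.51, 2.32 and 2.41 FPKM in WT and 2.95, 3.11 and 2.63 in 17ab, at 0.23 ± 0.29 (edgeR adjusted p = 0.6653). KRP1, KRP3 and KRP7 had overlapping groups and log2 fold changes from -0.16 to -0.04.

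Of the switch that D-type cyclins act on, only transcripts were measured, those of RBR1, the E2F factors and their DP partners. Phosphorylation of RBR1 was not measured. RBR1 (AT3G12280) had 16.64, 19.8 and 18.83 FPKM in WT and 17.27, 16.37 and 16.67 in 17ab, with overlapping groups and a log2 change of -0.15 ± 0.08 (edgeR adjusted p = 0.2483). E2FC (AT1G47870), the repressive E2F and the most abundant of its class, had 7.27, 7.12 and 5.17 FPKM in WT and 5.02, 6.77 and 6.35 in 17ab, also overlapping, at -0.16 ± 0.19 (edgeR adjusted p = 0.6523). E2FA and E2FB, the activating E2Fs, were at -0.47 ± 0.26 and -0.16 ± 0.23, and the atypical E2F DEL1, a repressor of endoreduplication, was at -0.05 ± 0.25 on the log2 scale. DPB (AT5G03415) went the other way, with 9.31, 11.36 and 11.29 FPKM in WT and 11.39, 11.57 and 13.06 in 17ab, groups that just failed to overlap and a log2 change of 0.15 ± 0.13 (edgeR adjusted p = 0.5019). Over the phase, 2 of 22 tested G1/S members fell (9.09%, background 6.51%), with a median log2 fold change of -0.14.

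The S-phase members are CYCA3 cyclins, made at the start of S phase, and WEE1, the kinase that delays division when replication is disturbed. None of the 4 passed the edgeR test in either direction, with 1 lower (background 13.4%) and 0 higher (background 14.1%) at an unadjusted p under 0.05. The groups of 3 of the 4 did not overlap, with 17ab lower (background 12.9%). CYCA3;2 (AT1G47210) had 14.74, 17.66 and 15.2 FPKM in WT and 14.22, 11.67 and 12.62 in 17ab, at -0.33 ± 0.12 (edgeR adjusted p = 0.09402). CYCA3;1 (AT5G43080) had 3.57, 4.1 and 3.07 FPKM in WT and 2.51, 2.95 and 2.53 in 17ab, at -0.43 ± 0.23 (edgeR adjusted p = 0.2535). In both the gap was narrow, and the lowest WT library stood close to the highest mutant one. WEE1 (AT1G02970) had 1.87, 2.28 and 2.99 FPKM in WT and 1.84, 1.58 and 1.51 in 17ab, at -0.56 ± 0.27 (edgeR adjusted p = 0.2041). CYCA3;4 was at 0.14 ± 0.16 with overlapping groups.

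Of the members that act in all phases, CKS2 alone passed the test. CKS2 (AT2G27970) had 14.42, 19.52 and 20.27 FPKM in WT and 14.55, 11.54 and 10.52 in 17ab, so that WT replicate 1 lay just under 17ab replicate 1 and the groups overlapped. The log2 change was -0.59 ± 0.18 (SE, edgeR adjusted p = 0.04169). It was kept without either of these libraries, at an adjusted p of 0.02856 and 0.02743, and lost without WT replicate 2 (0.1329), WT replicate 3 (0.1482), 17ab replicate 2 (0.1037) or 17ab replicate 3 (0.1264). With all 6 libraries it was also lost with the offset for GC content and length (-0.50, edgeR adjusted p = 0.08407), with DESeq2 (adjusted p = 0.1294) and in all 3 limma-trend fits (adjusted p from 0.05369 to 0.08764). CKS2 overlaps AT2G27980 on the same strand, which had 10.09 to 11.25 FPKM and a log2 change of 0.02 (edgeR adjusted p = 0.9259). Its neighbour and paralog CKS1 (AT2G27960) had 28.78, 31.46 and 29.08 FPKM in WT and 29.13, 27.78 and 27.92 in 17ab, at -0.10 ± 0.10 (edgeR adjusted p = 0.5846). CDKA;1 (AT3G48750), the kinase that most of these cyclins bind, had 31.11, 31.86 and 28.72 FPKM in WT and 31.1, 26.51 and 28.14 in 17ab, at -0.12 ± 0.09 (edgeR adjusted p = 0.4065). CYCH;1 (AT5G27620), the partner of the CDK-activating kinases, had 6.99, 9.18 and 8.12 FPKM in WT and 8.57, 6.53 and 5.89 in 17ab, at -0.24 ± 0.17 (edgeR adjusted p = 0.3787). Groups overlapped for each of these last 3 genes.

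Set side by side, the medians of the log2 fold changes were -0.14 for G1/S, -0.38 for the 4 S-phase members, -0.26 for G2/M and -0.18 for the members of all phases. The ratio of summed G2/M to summed G1/S FPKM was 0.714, 0.76 and 0.723 in WT and 0.678, 0.697 and 0.639 in 17ab. The ratio of B-type to D-type cyclins was 0.498, 0.558 and 0.52 in WT and 0.424, 0.474 and 0.409 in 17ab. Both ratios were lower in every mutant library than in any WT library, and they are given as descriptions of these 6 libraries.

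Genes that act with the members were read from lists of the same pathways. The lists were chosen with earlier results of these data known, so their shares beside the background are description and not a test. Of 13 mitotic and cytokinetic effectors, 7 fell (53.8%, background 6.51%) and 0 rose (background 7.57%), with a median log2 fold change of -0.53: KNOLLE, HIK, AUR1, AUR2, BUBR1, PLE and POK2. KNOLLE, HIK, PLE and POK2 act in cytokinesis, and AUR1, AUR2 and BUBR1 act at the spindle and chromosomes. BUBR1, of the spindle checkpoint family, had 5.3, 6.63 and 6.88 FPKM in WT and 3.73, 3.32 and 3.96 in 17ab, at -0.80 ± 0.19 (edgeR adjusted p = 0.01384). The Aurora kinase gene AUR2 had 9.23, 12.49 and 12.11 FPKM in WT and 6.81, 4.48 and 8.7 in 17ab, at -0.83 ± 0.20 (edgeR adjusted p = 0.01611). In both, all mutant libraries lay below WT. The number called was 3 without WT replicate 2, 4 without WT replicate 3, 8 without WT replicate 1, and 5 when either 17ab replicate 2 or 17ab replicate 3 was left out. The MSA core stood before 9 of the 13 (69.2%, against 20.6% of all windows).

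The anaphase-promoting complex (APC/C) degrades mitotic cyclins, and of 8 of its activators and inhibitors 3 fell (37.5%, background 6.51%) and 0 rose (background 7.57%). CCS52B, an activator made late in G2 and mitosis, had 16.03, 19.04 and 17.95 FPKM in WT and 14.33, 13.96 and 13.19 in 17ab, at -0.38 ± 0.10 (edgeR adjusted p = 0.02487). UVI4, an inhibitor of the complex that restrains endoreduplication, had 2.64, 2.5 and 3.21 FPKM in WT and 1.5, 1.17 and 1.41 in 17ab, at -1.08 ± 0.30 (edgeR adjusted p = 0.02832). CDC20.1 was at -0.54 ± 0.09, and its reads were divided with other genes in all 6 libraries, so its level is uncertain to that extent. All 3 had groups that did not overlap, and 1 or 2 of the 8 were called in each fit without 1 library. CDC20.1 was called in each of these fits, CCS52B only without WT replicate 1 or 17ab replicate 1, and UVI4 only without WT replicate 2. With DESeq2 on all 6 libraries CDC20.1 alone was called. The change of UVI4 rests on 10 to 26 counts per library. CCS52A2, an activator that favours endoreduplication, had 1.96, 2.6 and 2.36 FPKM in WT and 4.09, 3.04 and 2.98 in 17ab, at 0.52 ± 0.23 (edgeR adjusted p = 0.1567), and it was picked for mention after its values were seen.

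Of 16 S-phase E2F target genes, which serve DNA replication, 3 fell (18.8%, background 6.51%) and 0 rose (background 7.57%), with a median log2 fold change of -0.26. MCM4 and MCM5, of the replicative helicase, were at -0.42 ± 0.12 and -0.32 ± 0.10, and CDT1B, of origin licensing, was at -0.81 ± 0.23 (edgeR adjusted p = 0.02891, 0.04414 and 0.0339). The number called was 0 without WT replicate 2, 0 without 17ab replicate 3 and 6 without 17ab replicate 1. At least 1 of 4 E2F sites (TTTCCCGC, TTTGGCGC, TTTCGCGC or TTTGCCGC, either strand) stood before 6 of these 16 genes (37.5%) and before 1.41% of all protein-coding genes.

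The regulators of the mitotic genes were not called. None of 10 tested MYB3R and DREAM-complex genes passed the edgeR test, with a median log2 fold change of -0.07 and 1 lower (background 13.4%) and 0 higher (background 14.1%) at an unadjusted p under 0.05. MYB3R4, an activator of MSA-bearing genes, had 4.65, 4.64 and 5.55 FPKM in WT and 4.32, 3.81 and 3.58 in 17ab, at -0.39 ± 0.15 (edgeR adjusted p = 0.09544), and it was picked for mention after its values were seen. None of 9 CDK-activating and other CDKs passed, with a median of -0.02. At an unadjusted p under 0.05, 2 of the 9 were lower (background 13.4%) and 0 higher (background 14.1%). None of the 4 tested of 12 other SIAMESE-related inhibitors and none of 8 DNA damage response genes passed, with 0 at an unadjusted p under 0.05 in either direction in both lists.

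**Figure D5:**
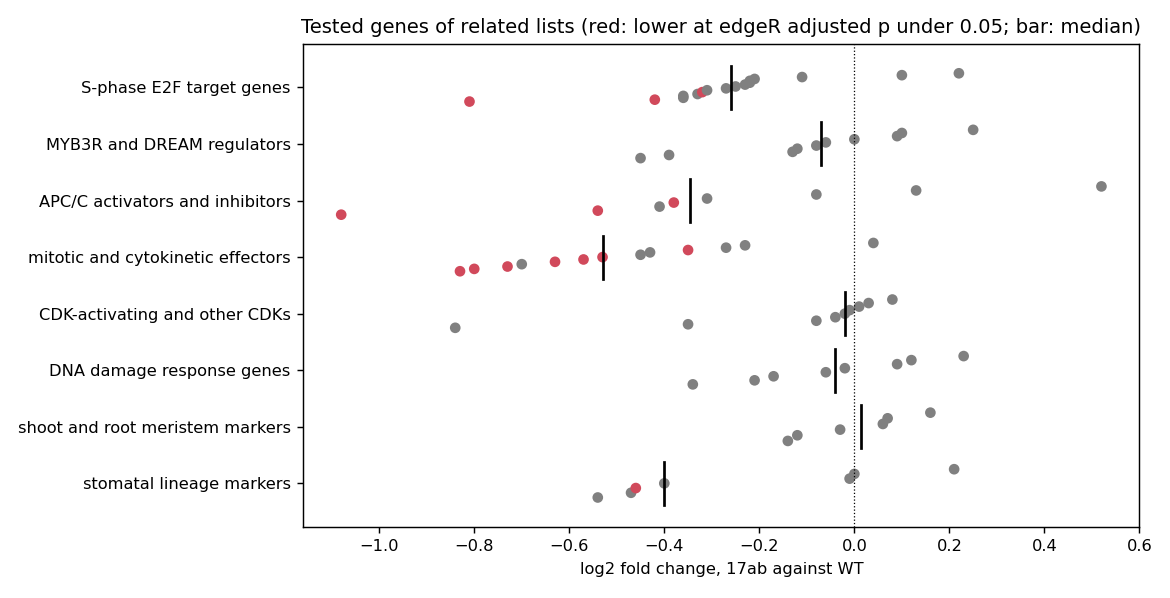
Log2 fold change of 17ab against WT for the tested genes of 8 lists related to the cell cycle or to dividing tissues, with genes called lower by edgeR in red and the median of each list as a bar. The median is -0.53 for mitotic and cytokinetic effectors, -0.34 for the APC/C list and -0.26 for E2F targets, and it is -0.07 for MYB3R and DREAM regulators.

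Markers of dividing tissues were read beside these results. Of 11 shoot and root meristem markers 6 were tested and 0 passed, with a median log2 fold change of 0.02 and 0 at an unadjusted p under 0.05 in either direction. Their summed level was 69.64 to 71.94 FPKM in WT and 69.31 to 78.39 in 17ab. The defining stem cell markers carried almost no signal: CLV3 was at 0 in all libraries, and WUS, PLT1, PLT2 and WOX5 did not exceed 0.31 FPKM. Of 7 stomatal lineage markers, whose cells divide in young leaves, 1 fell (background 6.51%), the receptor gene TMM at -0.46 ± 0.10 (edgeR adjusted p = 0.008143). The median was -0.40 and 6 of the 7 lay below 0, or 4 without WT replicate 3. SPCH, BASL and EPF2 did not pass, at -0.47 ± 0.18, -0.54 ± 0.26 and -0.40 ± 0.24 (edgeR adjusted p = 0.09547, 0.1963 and 0.3014). With TMM they were the 4 of 7 whose groups did not overlap, with 17ab lower (57.1%, background 12.9%). In the other direction it was 0 (background 18.2%). Of the 6 below 0, MUTE and FAMA were almost unchanged, at 0.998 and 0.994 of the WT level, and EPF1 was above 0 at 0.21 ± 0.37. The summed level of the list was 53.59 to 59.15 FPKM in WT and 43.75 to 52.4 in 17ab, so it moved in the same direction as the mitotic cyclins, and its part in their difference was not tested. Of the other tissue lists, the trichome and root epidermis gene GL2 fell (1 of 2 tested, background 6.51%). The leaf gene GLDP1 fell (1 of 5 tested, background 6.51%). The auxin response factor gene ARF7 rose (1 of 2 tested pericycle and lateral root markers, background 7.57%). Their log2 fold changes were -0.35 ± 0.10, -0.28 ± 0.07 and 0.33 ± 0.08 in that order. None of these calls held without WT replicate 3. The summed green leaf markers overlapped between the groups, at 16713.41 to 19663.52 FPKM in WT and 15749.62 to 18313.3 in 17ab.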

How the data were processed

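Polyadenylated RNA of whole seedlings was sequenced in 3 WT and 3 17ab libraries, per the labels. The authors deposited, for each library, a table of gene length, expected count and FPKM per gene, per the file headers. STAR 2.4.0, HTSeq 0.6.0 and DESeq2 appear in the submitters' processing notes, as does the build TAIR10, without their roles. The estimator of the counts is not given in the sources used. Of the expected counts, 91.3% to 91.8% were whole (tolerance 1e-06), and the others hold divided reads. A gene not listed in a library was taken as 0 there. Use of strand is also not stated. The gene lengths the authors used differed between libraries for some members, which moves FPKM but not the counts behind the test.

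Rounded expected counts entered edgeR 4.0.16 under R 4.3.3 (quasi-likelihood test, TMM normalization, default expression filter, genotype as the single term, all 6 libraries), with Benjamini-Hochberg adjustment over the 17854 genes kept, which hold 99.78% of the counts, and a threshold of 0.05. The SE of a log2 fold change is its absolute value divided by the square root of F. The script was tested on simulated data first. The labels do not say whether libraries came from separate plates, so that the spread behind the p-values may be technical. No pair of libraries agreed within sampling noise. A count of 3, a floor for reading low values, is 0.477 to 0.503 CPM, and it covers counting error only. It was not used as a filter in any fit.

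The members and the gene lists were chosen with earlier results of these data known. Values in every library are given for called members, for the most abundant member of each class and for members whose groups did not overlap at a mean of at least 1 FPKM in the higher group. Names, gene overlaps and upstream sequence came from RefSeq TAIR10.1, which matched all 53 members. Overlap with another annotated gene was found for 17 members, and divided reads for 3. Alternatives were DESeq2 size factors, no filter, a filter of 5 CPM in 3 libraries, each library left out, DESeq2 1.42.0, a block on the replicate number, limma-trend 3.58.1 on log2(FPKM + 1) and log2(FPKM + 0.1), and an offset for GC content and length (loess span 0.5).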

Additional observations from a re-analysis of the deposited data

How the results depend on the processing

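No member was called higher under any of the 16 alternatives, and no called member changed direction. Single values were tallied for the 27 members that met the rule for values in every library. Under the alternatives 376 of these values kept direction and side of the threshold, and 32 kept direction and lost the call. A further 12 gained a call, and 8 changed direction without a call. Other members are outside this tally and some changed direction too: without 17ab replicate 2 all 9 B-type cyclins, CYCB2;1 included, lay below 0. The 8 changes of direction in the tally belong to SMR1 (0.07 with all libraries, -0.04 without WT replicate 2 and -0.15 without 17ab replicate 1, up to 0.21 without 17ab replicate 2) and KRP4 (-0.01 with all libraries, 0.02 without WT replicate 2, 0.06 without 17ab replicate 1 and also without 17ab replicate 3, and 0.01 in each of the 3 limma-trend fits). CYCB1;2 and CYCD3;2 kept their calls throughout.

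With all libraries and no filter on low counts, 8 members were lower, 5 of them of G2/M. With a filter of 5 CPM, 4 members were lower, and only 1 of them was of G1/S, because CYCD6;1 was then not tested. DESeq2 called 1604 genes and 2 members lower (1 of G1/S, 1 of G2/M). Limma-trend on log2(FPKM + 1) called 4 members, 1 of them of G1/S, and on log2(FPKM + 0.1) 3 members, 1 of them of G1/S. Without a filter it called 1616 genes and 2 members (1 of G1/S, 1 of G2/M). The offset for GC content and length gave 6 members, 4 of them of G2/M, and lost CKS2. With the replicate block, alone or with the offset, CYCB1;1, CYCD6;1 and CKS2 were not called. For the other changes the cause was not tested.

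Without 1 library, 1540 to 2079 genes were called, with 2 to 5 members lower, 1 to 2 of G1/S and 1 to 3 of G2/M. The lowest gene counts were 1547 without WT replicate 2 and 1540 without WT replicate 3.

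Libraries of the same number did not deviate together (correlations -0.00279, -0.108 and -0.0457), so no pairing by number was visible. Whether they were grown or prepared together is not stated, and these correlations cannot decide it. With the replicate block 1853 genes were called and 3 members were lower, 1 of them of G1/S. With the offset and the replicate block it was 1644 genes and 3 members, 1 of them of G1/S. Depth limits members near or under 1 FPKM, and 3 of 53 were not tested. The filter works on counts, and 1 of the 3, CYCD4;2, had means of 1.21 FPKM in WT and 1.08 in 17ab.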
